A study of Mus musculus with 30 samples.

Results

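Dox withdrawal in the rescue clone of Ppp2r1b was followed on 6 of the 30 arrays, which were taken by their titles as Ppp2r1b_R with Dox, replicates 1 to 3, and Ppp2r1b_R without Dox, replicates 1 to 3. The series set rescue clones of mouse embryonic stem cells (ESCs) for several regulators of protein phosphorylation beside a control clone, Ctrl_R. By their sample numbers, the arrays of Ctrl_R come from an earlier submission than the others. By their labels Bub1b_R, Chek1_R and Ppm1g_R were also taken with and without Dox, and the question was which transcripts change once the rescue copy is switched off. All clones came from the ESC line Ainv15, which carries the reverse tetracycline transactivator rtTA and was kept with LIF, the cytokine that holds mouse ESCs undifferentiated. In Ppp2r1b_R a lentiviral cassette held an shRNA against Ppp2r1b and a Dox-driven copy of Ppp2r1b, with eGFP, in which silent base changes spare the copy from the shRNA. With 1 μg/ml of doxycycline (Dox) the copy was on. The other condition was 5 days without Dox, with only the depleted endogenous mRNA left by design. Cells were sorted for GFP and grown into clones on fibroblast feeders, and the study's methods describe the array cultures as free of feeders. The labels do not say whether the 3 replicates were separate cultures or clones. The p-values of the main fit therefore measure only the spread between arrays of a condition, which may be technical. That spread was pooled over all 30 arrays. There were 3 arrays a condition. The 30 arrays fell into 2 sets by signal: Chek1_R, Ppm1g_R and Ppp2r1b_R had median signals of 25.6 to 53.8, and Ctrl_R and Bub1b_R of 16.1 to 23.9, so that within-clone changes stay inside 1 set. On the arrays labelled Chek1_R the targeted gene went against the labels, since Chek1 was higher without Dox (change 0.71), while T and Mixl1, which rose without Dox in Bub1b_R and Ppm1g_R, also rose there (4.44 and 2.75). The main comparisons that use these arrays are given with and without them.

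Ppp2r1b encodes the beta form of the scaffold subunit A of protein phosphatase 2A (PP2A). In this enzyme a scaffold holds a catalytic subunit C and an exchangeable regulatory subunit B, which chooses the substrates. PP2A removes phosphate from serine and threonine residues and acts on many pathways, among them ERK, Wnt and AKT signalling and mitotic exit.

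The shRNA target that the study lists for Ppp2r1b is printed because the design rests on such a sequence, as are the primers with which the study followed the mRNA. All stand 5′ to 3′ in the sense of the study's own list, and no base is in capitals.
Listed shRNA target in Ppp2r1b: gctccgtctcaacagtattaa
qRT-PCR forward primer: tcgcggttttaatcgacgag
qRT-PCR reverse primer: ctaccccgagtgctagagcta
The study lists mutagenesis primers, which carry the silent changes, beside shRNA targets for 6 genes. In 5 of them (Acvr2a, Dyrk3, Mapk13, Mapk4 and Ppm1g) the primer held the gene's 21-base target with 18 matching bases and 3 mismatches. The primer listed for Ppp2r1b matched the printed target at no more than 10 of 21 bases on either strand. The printed target may therefore not be the one used in the clone on the arrays.

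Ppp2r1b itself was measured by 1 probe, which was detected on all 6 arrays. Its normalised log2 signal was 6.23, 6.20 and 5.84 with Dox and 6.16, 6.49 and 6.21 without Dox. The ranges overlapped, and the change of 0.20 (SE 0.15, 95% interval −0.11 to 0.51) did not pass the test (limma, adjusted p 0.365). A fall of more than 0.11 on the log2 scale lies outside that interval. The position of the probe in the mRNA is not given in the sources used here, so it is not known whether the probe reads the rescue copy, the endogenous mRNA or both, and it does not check which arrays had the copy on. The level of the probe was low in both conditions. Among arrays of similar signal strength, the mean of the arrays labelled Chek1_R and of Ppm1g_R was 7.07 with Dox and 7.29 without Dox, against 6.09 and 6.29 in Ppp2r1b_R. The difference was −0.98 with Dox (SE 0.13, adjusted p 2.02e-06) and −1.004 without Dox (SE 0.13, adjusted p 6.74e-07), or 1.98-fold and 2.01-fold lower by limma. In these 2 comparisons of levels, 3.49% and 7.02% of all tested probes were lower by the same rule. This look at levels was chosen with the values in view. The 6 arrays of Ppm1g_R alone lay between 6.77 and 7.40, above every array of Ppp2r1b_R. In the other set of arrays, those of Bub1b_R lay between 7.16 and 7.80 and those of Ctrl_R between 6.28 and 6.92, where they overlapped with Ppp2r1b_R, and levels across the sets were not tested.

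**Figure D1:**
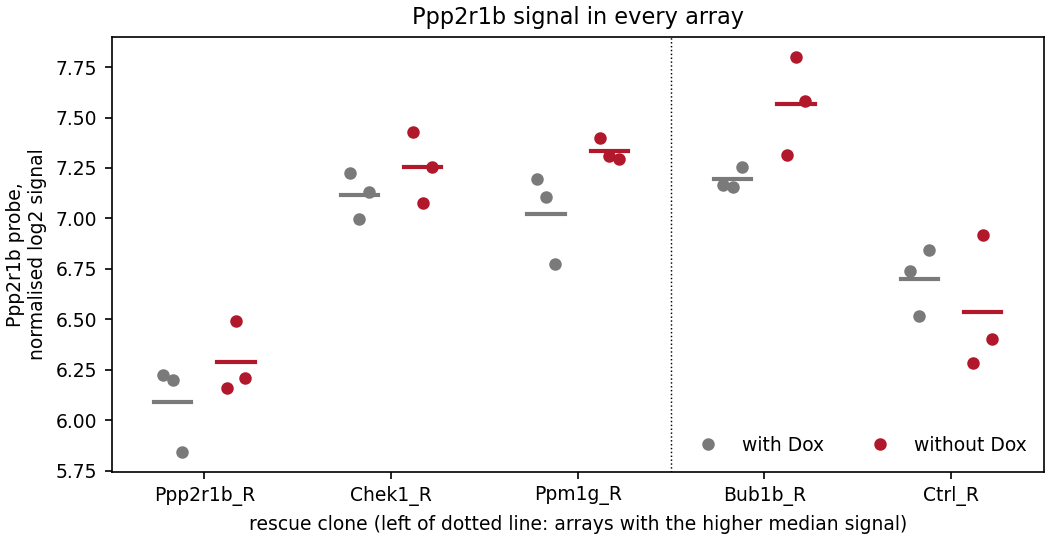
Normalised log2 signal of the Ppp2r1b probe (vertical axis) on each of the 30 arrays, by rescue clone, with Dox in grey and without Dox in red. Points are arrays and bars are means of 3, and the 6 arrays of Ppp2r1b_R lie between 5.84 and 6.49, below every array labelled Chek1_R or Ppm1g_R (left of the dotted line).

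The other PP2A genes gave no call. Of 32 listed subunits and regulators 22 were tested, and none was called, that is, none had an adjusted p under 0.05 together with at least a 1.5-fold change. Of all 11177 genes tested by their brightest probe 4.99% were called, so that few calls would be found among 22 genes at that share. Changes ran from −0.35 to 0.35. Ppp2r1a, the alpha scaffold, was 10.88, 10.57 and 10.41 with Dox and 10.56, 10.77 and 10.64 without Dox (change 0.04, SE 0.11, adjusted p 0.831). Ppp2ca, a catalytic subunit, had a change of −0.01 (SE 0.06, adjusted p 0.934). The methods' t-test with Benjamini-Hochberg adjustment called none either. By limma 4 genes had an unadjusted p under 0.05 (37.6% of all genes tested did), and the same 4 an adjusted p under 0.05, at less than 1.5-fold: Lcmt1, the methyltransferase that modifies the catalytic subunit, at −0.35, Ppme1, the matching methylesterase, at 0.35, and the regulatory subunits Ppp2r5c at −0.34 and Ppp2r3c at −0.28.

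Beyond PP2A, Dox withdrawal changed many transcripts in this clone, with more rises than falls among the larger changes. Of 15151 tested probes 731 were called (4.82%), 420 higher (2.77%) and 311 lower (2.05%), which stand for 670 gene symbols. The median change of all tested probes was −0.01, and the middle 50% lay between −0.17 and 0.16. At 2-fold or more, 69 probes were higher and 23 lower. Of the called probes 678 had values that did not overlap between conditions, beside 4885 of all tested probes. The signal was not detected on any array with Dox for 74 of the higher probes, nor on any array without Dox for 40 of the lower ones. A change in such bulk RNA cannot tell more cells of a type from more RNA per cell. With an offset of 50 added to the signals, which compresses weak ones, 342 probes were called, and among the genes that then stayed under 1.5-fold were Eomes, Crabp1, Ccne2, Dcn, Pdgfrb, Dazl, Csnk1g1, Cd68, Tap1, Rprm, Sesn2, Usp43 and Lancl3. Array 1 with Dox had the fewest detected probes, 11733, and the other 5 arrays had 12419 to 12728.

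**Figure D2:**
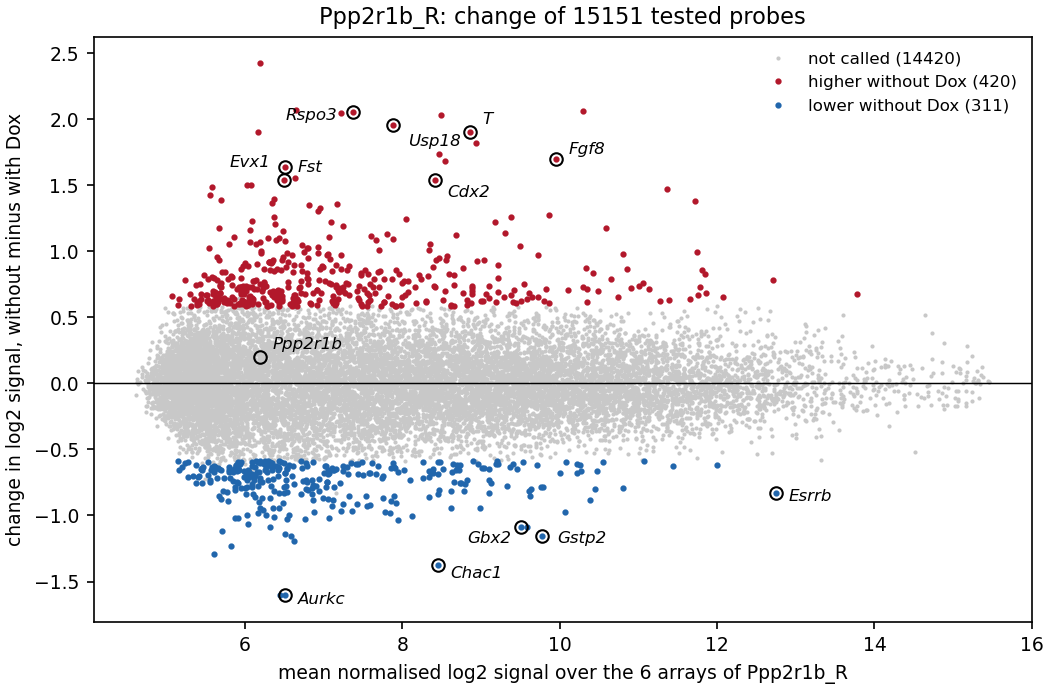
Change in log2 signal after Dox withdrawal (vertical axis, without minus with Dox) against the mean normalised log2 signal over the 6 arrays of Ppp2r1b_R (horizontal axis), 1 point per tested probe. Called probes are coloured (420 higher in red, 311 lower in blue), and Ppp2r1b lies among the grey, uncalled probes at 0.20.

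The 15 genes that rose most included regulators of the posterior embryo, a Wnt enhancer, interferon-induced genes and Paneth-cell defensin relatives. Cxx1c, a retrotransposon-derived gene of the X chromosome that RefSeq names Rtl8c, was not detected with Dox (log2 signal 4.98, 4.99 and 4.98) and reached 7.33, 7.53 and 7.37 without Dox. It was at least 3.18-fold higher (limma, adjusted p 1.99e-13). LOC100048346 was at least 3.84-fold higher and Defcr-rs10, a cryptdin-related defensin, at least 2.59-fold higher, both undetected on the 3 arrays with Dox. These bounds set the undetected arrays at the lowest signal that counted as detected, or at their own if higher. Related probes named AY761185 and Defcr-rs7 rose by 2.04 and 2.03. Cryptdin genes are near-identical copies, so which member each probe read is uncertain. LOC100044289 rose by 2.06, beside a rise of 1.46 in Ctrl_R, and D030013I16Rik, listed by RefSeq as the pseudogene Pisd-ps2, by 1.82.
Usp18, which removes the ubiquitin-like protein ISG15 and restrains interferon signalling, was 7.05, 6.63 and 7.05 with Dox and 8.88, 8.88 and 8.84 without Dox. It rose by 1.96 (SE 0.13, limma adjusted p 6.63e-11). The interferon-induced genes D12Ertd647e and Samd9l rose by 1.69 and 1.55. Rspo3, a secreted enhancer of Wnt signalling, was 6.17, 6.58 and 6.28 with Dox and 8.34, 8.34 and 8.51 without Dox (change 2.06, SE 0.20, adjusted p 7.09e-08). Without background correction its change was 2.31 and narrowly missed the test (adjusted p 0.0546). The groups of arrays did not overlap for any of these genes, as for 678 of the 731 called probes and 4885 of the 15151 tested.

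Part of the genes of the primitive streak, the site where the epiblast forms mesoderm and endoderm, and of early mesoderm rose. Of 28 tested, 11 rose and none fell, with a median change of 0.48 and 25 changes above 0. Over all genes tested, 2.8% rose and 2.19% fell, and the median change was −0.01. Of the 28, 5 were detected on no array of this clone (Eomes, one of the 11, with Mixl1, Lhx1, Mesp1 and Wnt3a). The other 23 held 10 that rose, had a median change of 0.50 and 21 changes above 0. T (Brachyury), the T-box factor of the streak and nascent mesoderm, was 7.98, 7.88 and 7.85 with Dox and 9.78, 9.95 and 9.69 without Dox. Fgf8, a growth factor of the streak, was 9.03, 9.18 and 9.07 with Dox and 10.75, 10.93 and 10.71 without Dox. The arrays of the 2 conditions lay far apart for both genes, with changes of 1.90 for T (SE 0.11, adjusted p 8.24e-12) and 1.70 for Fgf8 (SE 0.07, adjusted p 4.22e-14).
Cdx2, a caudal homeobox factor of the posterior embryo and of trophoblast, was 7.58, 7.52 and 7.83 with Dox and 9.15, 9.29 and 9.12 without Dox. Evx1, a homeobox factor of the posterior streak, was 5.53, 6.00 and 5.63 with Dox, where 1 of 3 arrays detected it, and 7.28, 7.29 and 7.22 without Dox. Both rose by 1.54 (adjusted p 3.83e-08 and 2.54e-08). Fst, which binds and blocks activin, rose by 1.64 from a level that was detected on 1 of 3 arrays with Dox. Agtrl1, the apelin receptor now named Aplnr, was undetected with Dox and at least 2.14-fold higher without it. The Wnt ligands Wnt5b and Wnt8a rose by 1.17 and 0.64, Sp5, a zinc-finger target of Wnt, by 0.76, and Tnfrsf19, a receptor of the TNF family, by 0.61.

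The other 17 streak genes were not called, of which 10 were detected on all 6 arrays, 3 on some and 4 on none. Mixl1, a homeobox factor of the streak and of endoderm precursors, was detected on none of the 6 arrays, with log2 signals of 4.71, 4.72 and 4.69 with Dox and 4.93, 5.42 and 5.05 without Dox. Eomes, a T-box factor of the early streak, passed the test but was also detected on none of them, and no fold is given. Lhx1 and Mesp1, factors of the anterior streak and of cardiac mesoderm, and Wnt3a were undetected throughout as well. Gsc, a homeobox factor of the organizer, was detected on all 6 arrays at 6.62, 6.83 and 6.93 with Dox and 6.38, 6.60 and 6.79 without Dox (change −0.20, SE 0.11, adjusted p 0.167). Tbx6 and Nodal had changes of 0.14 and −0.04 and did not pass. The number of tested streak genes detected was 16, 19 and 17 with Dox and 22, 22 and 21 without Dox. The summed signal of the 28 genes before normalisation was 8081.2, 8402.7 and 12692.4 with Dox and 10582.6, 11507 and 15559.2 without Dox, with Ifitm1 or Sp5 the brightest. These sums overlapped between conditions, and replicate 3 was highest in both. Each sum without Dox was above that of the same number with Dox, but the numbers were not taken to pair the arrays.

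**Figure D3:**
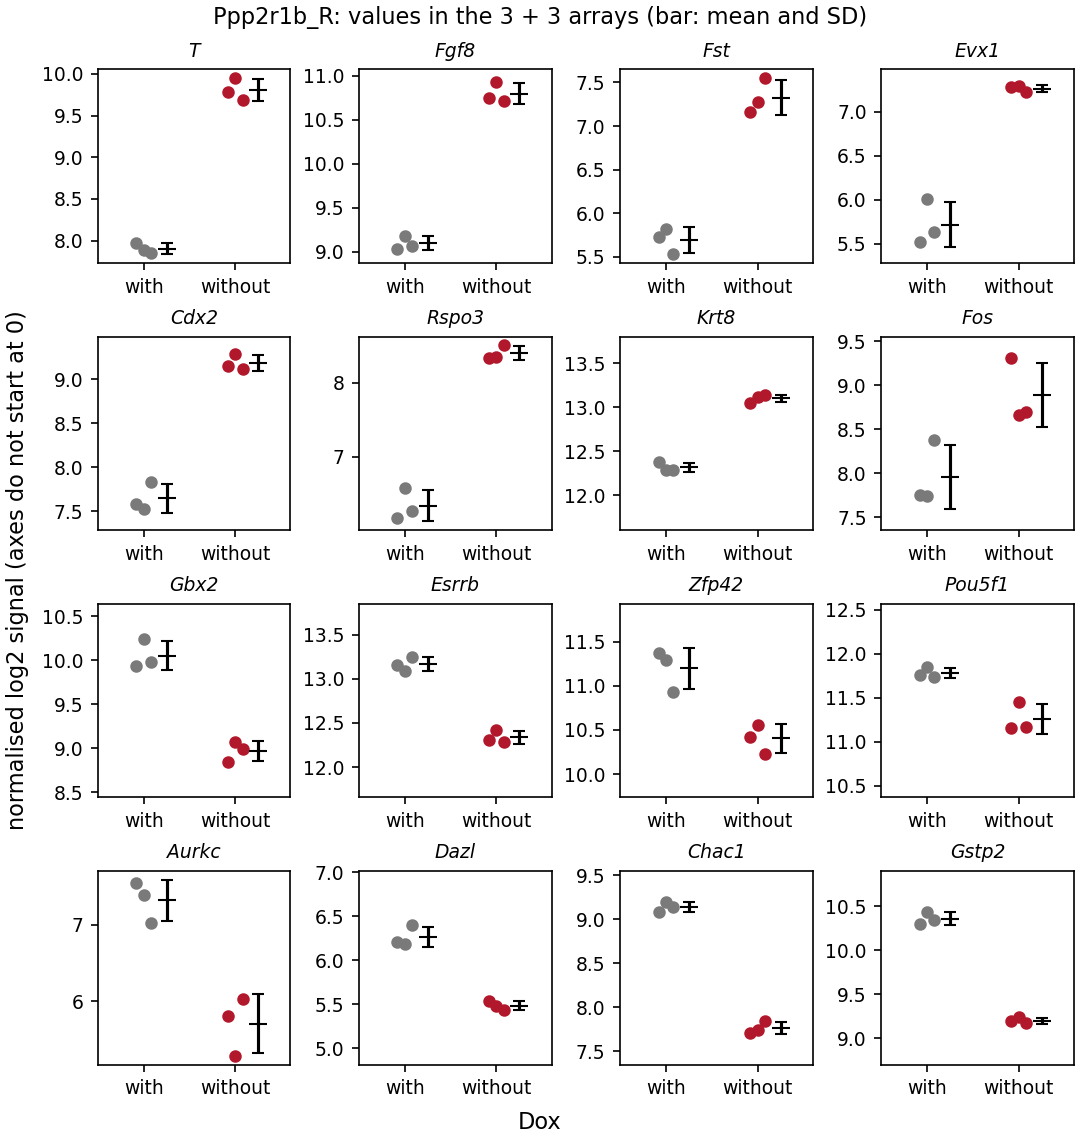
Normalised log2 signal of 16 genes (vertical axes, each with its own range) on the 3 arrays with Dox (grey) and the 3 without Dox (red) of Ppp2r1b_R. The bars give the mean and SD, and the conditions do not overlap in any of the panels, among them T, which moved from 7.85 to 7.98 up to 9.69 to 9.95. Conditions did not overlap for 4885 of all 15151 tested probes either.

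Part of the genes of naive pluripotency, the state of the preimplantation epiblast that mouse ESCs hold in LIF, fell. Of 22 tested, 6 fell and none rose, and the median change was −0.45, with 18 below 0. Gbx2, a homeobox factor downstream of LIF and STAT3, was 9.94, 10.24 and 9.98 with Dox and 8.85, 9.07 and 8.99 without Dox (change −1.08, SE 0.08, adjusted p 9.77e-10). Tcl1, a co-activator of AKT, was 10.51, 10.60 and 10.54 with Dox and 9.54, 9.58 and 9.62 without Dox (change −0.97). Esrrb, an orphan nuclear receptor of the naive network, was 13.16, 13.09 and 13.25 with Dox and 12.31, 12.42 and 12.28 without Dox (change −0.83, SE 0.06, adjusted p 8.45e-10). In each of these genes the lowest array with Dox lay above the highest without it, and 678 of the 731 called probes had no overlap. Zfp42 (Rex1), a zinc-finger marker of ESCs, was 11.38, 11.29 and 10.94 with Dox and 10.43, 10.56 and 10.23 without Dox (change −0.80, adjusted p 3.74e-05). Dppa3 (Stella) fell by 0.78, and Tdh, the threonine dehydrogenase of mouse ESCs, by 0.58. Klf2 and Nr5a2 had changes of −0.58 each, just short of the fold limit, and Klf5, Stat3 and Socs3 had changes of 0.16, 0.11 and 0.03.
Of 20 core genes 2 fell and none rose, with a median of −0.31, and without replicate 2 without Dox 5 fell. Utf1, a chromatin factor of ESCs, fell by 0.68. Eras, an ESC form of Ras, fell by 0.65, and without replicate 2 with Dox its change was −0.56 and was not called. Pou5f1 (Oct4) was 11.76, 11.85 and 11.74 with Dox and 11.15, 11.45 and 11.16 without Dox, a change of −0.53 (SE 0.09, adjusted p 9.06e-05) that stayed below 1.5-fold. Sox2 and Nanog had changes of −0.54 and −0.40, also below 1.5-fold. Pou5f1, Sox2, Nanog, Sall4, Utf1 and Zfp42, the markers set for ESCs, were detected on all 6 arrays. Of 18 formative and primed epiblast genes, markers of the state next to gastrulation, 1 rose and none fell (median 0.01). The 1 that rose was Krt18, a keratin that the trophoblast list below also holds. Fgf5 was 6.84, 6.76 and 6.54 with Dox and 7.29, 7.32 and 7.22 without Dox (change 0.56, limma adjusted p 0.00306, not called).

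**Figure D4:**
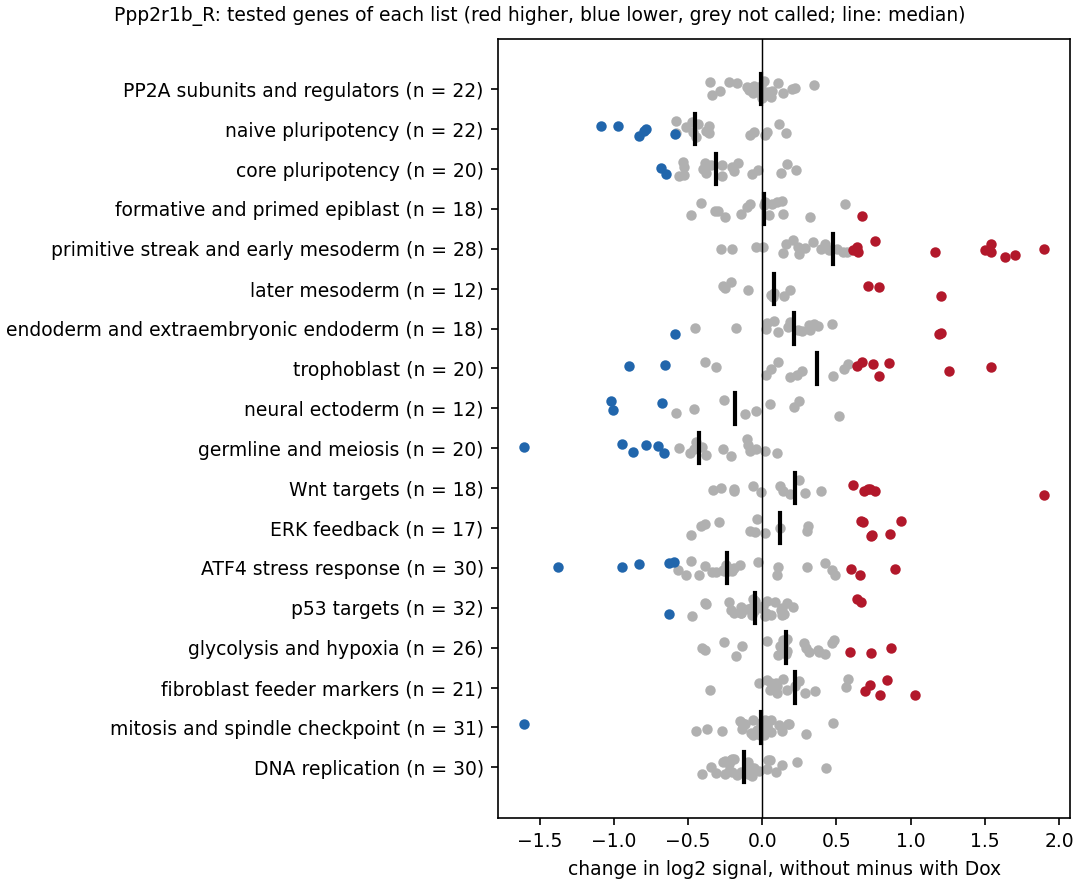
Change in log2 signal after Dox withdrawal in Ppp2r1b_R (horizontal axis) for the tested genes of 18 lists, 1 point per gene. Red points were called higher, blue lower and grey not called, and the vertical line marks the list's median, for example 0.48 for the 28 streak genes and −0.45 for the 22 naive genes.

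Among trophoblast genes, those of the outer layer of the blastocyst and of placenta, 7 of 20 rose and 2 fell (median 0.37), Cdx2 and Eomes among the 7, although Eomes was called with no array above detection. The keratins of simple epithelia accounted for 3 more. Krt19 was 8.88, 8.86 and 8.52 with Dox and 10.01, 10.00 and 10.02 without Dox (change 1.26), Krt8 rose by 0.79 and Krt18 by 0.67. Gata3, a zinc-finger factor of trophoblast, rose by 0.85, and Bmp8b, a BMP ligand, by 0.75. The X-linked homeobox genes Rhox6 and Rhox9 fell by 0.90 and 0.65, with Rhox6 detected on 2 of 3 arrays without Dox, and the call of Rhox6 was lost in a fit of the 6 arrays alone (−0.82, adjusted p 0.0934).
Of 12 later mesoderm genes 3 rose and none fell (median 0.08). Pdgfra, a growth factor receptor of mesoderm and primitive endoderm, was 5.51, 6.15 and 5.68 with Dox and 7.33, 6.85 and 6.77 without Dox (change 1.20, adjusted p 8.18e-05), and 2 of 3 arrays with Dox detected it. Bmp4, a BMP ligand, rose by 0.71, and Ahnak, a scaffold protein, by 0.79, although its probes ranged down to 0.16. Of 18 endoderm and extraembryonic endoderm genes 2 rose and 1 fell (median 0.21), with Cited1, a transcriptional co-activator, at 1.19, and Pdgfra is on this list too. The gene that fell was Hnf4a, a nuclear receptor of endoderm (−0.59), beside −0.50 in Ctrl_R (difference −0.09, limma adjusted p 0.836), and with each of the 6 arrays left out in turn 0 to 2 genes of the list fell. Cited1 also rose in Ctrl_R (0.83), and the difference between the clones, 0.36, was not called (limma adjusted p 0.335). Of the endoderm factors Gata4, Gata6 and Sox17 none was called. Gata4 was detected on 2 of 3 arrays with Dox and on none without, with a bound of at least 1.08-fold lower. Gata6 and Sox17 had changes of 0.18 and 0.24. Of 12 neural ectoderm genes 3 fell and none rose (median −0.19). Sox21, an SRY-box factor, was 8.52, 8.73 and 8.63 with Dox and 7.59, 7.64 and 7.64 without Dox (change −1.005), although its second probe changed by −0.12. Crabp1 fell by 0.68. Neurod1 was detected on 1 of 3 arrays without Dox, so that its fitted fall of 1.02 is not an exact size, and it was not called in a fit of the 6 arrays alone (−0.93, adjusted p 0.0742) or without background correction (−1.94, adjusted p 0.0805).

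Markers of fibroblasts, the feeder cells on which the clones had been grown, moved in part. Of 21 tested, 5 rose and none fell (median 0.22). These were Col1a1 (1.03), Col6a1 (0.79), Pdgfrb (0.73), Cyr61 (0.69) and Dcn, which was undetected with Dox and at least 1.31-fold higher without it (not called without background correction or in a fit of the 6 arrays alone). The summed signal of the 21 markers was 17961, 19190 and 24909.1 with Dox and 17177, 17917.9 and 24187.3 without Dox, so the conditions overlapped. Ctgf was the brightest on every array, at 7088.4, 7810.3 and 9625.6 with Dox and 6370.8, 6745 and 9407.9 without Dox. Its change was 0.03, and the sums weigh it heavily. The number of tested markers detected was 15, 17 and 17 with Dox and 18, 18 and 19 without Dox, with no overlap. Detected probes of all kinds were also fewer with Dox (11733, 12448 and 12419) than without (12578, 12581 and 12728). Col3a1, a defining collagen of fibroblasts, was detected on none of the arrays with Dox and on 1 without. The part of these markers in the changes of mesoderm genes was not tested.

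Part of the germline and meiosis genes, some of which ESCs transcribe, fell. Of 20 tested, 6 fell and none rose, and the median was −0.43, with 18 below 0. Aurkc, the Aurora kinase of meiosis, had the largest measured fall of the genes tested, from 7.54, 7.38 and 7.02 with Dox to 5.82, 5.29 and 6.03 without Dox (change −1.60, SE 0.16, adjusted p 7.17e-08), where 2 of 3 arrays detected it. Dazl, an RNA-binding protein of germ cells, was 6.21, 6.19 and 6.40 with Dox, was not detected without Dox and was at least 1.57-fold lower. Tex19, a regulator of retrotransposons, fell by 0.94, Dmrtc2 by 0.87, Mov10l1, a helicase of the piRNA pathway, by 0.70 and Smc1b, the cohesin subunit of meiosis, by 0.66. All 6 genes had arrays that did not overlap between conditions, as did 678 of the 731 called probes and 4885 of the 15151 tested.

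Several signalling read-outs rose in part of their genes. Of 17 ERK feedback and immediate early genes 6 rose and none fell (median 0.12, and 0 to 0.28 with each of the 6 arrays left out in turn). Fos was 7.75, 7.74 and 8.37 with Dox and 9.31, 8.66 and 8.70 without Dox (change 0.94, SE 0.15, adjusted p 5.73e-05). Dusp4, a phosphatase that acts on MAP kinases, was 10.38, 10.41 and 10.47 with Dox and 11.21, 11.34 and 11.30 without Dox (change 0.86, SE 0.06, adjusted p 9.86e-11). The spread was wide for Fos and narrow for Dusp4, and in a fit of the 6 arrays alone Fos was not called (0.89, adjusted p 0.0579). Phlda1, Ier3, Jun and Junb rose by 0.74, 0.73, 0.68 and 0.67.
Of 18 Wnt targets 6 rose and none fell (median 0.22, and 0.12 to 0.32 with each of the 6 arrays left out in turn). Next to T, Sp5 and Tnfrsf19 these were Fzd10, a Frizzled receptor (0.73), Notum, a secreted Wnt deacylase (0.71), and Bcl9l, a co-factor of beta-catenin (0.69, with its second probe at −0.28). Axin2, the common feedback target, stayed below 1.5-fold with a change of 0.40 (adjusted p 0.000232). Among 18 genes of Nodal and BMP signalling 3 rose and none fell (median 0.17). Next to Fst and Bmp4, given above, this was Msx1, a homeobox target of BMP, at 1.07 and detected on 1 of 3 arrays with Dox. With each of the 6 arrays left out in turn the median of the 18 genes was 0.08 to 0.22, and 0 to 1 genes fell.

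Genes of the ATF4 stress response, which answers amino acid and protein-folding stress, moved in both directions. Of 30 genes 5 fell and 3 rose (median −0.24), and none was called for a lower change than in Ctrl_R. Chac1, which degrades glutathione, was 9.09, 9.20 and 9.14 with Dox and 7.71, 7.75 and 7.84 without Dox (change −1.38, SE 0.06, adjusted p 2.03e-13). Trib3 and Nupr1, stress-induced regulators, fell by 0.94 and 0.83, while Vldlr, a lipoprotein receptor, rose by 0.89. Leaving out each of the 6 arrays in turn, between 3 and 6 of these genes fell and between 1 and 4 rose. Among the 15 genes that fell most in all were 3 enzymes of detoxification, named for their place there and not from a list. Gstp2, a glutathione S-transferase, was 10.29, 10.44 and 10.34 with Dox and 9.19, 9.24 and 9.17 without Dox (change −1.16, SE 0.06, adjusted p 4.7e-12). Aldh3a1, an aldehyde dehydrogenase, and Cbr3, a carbonyl reductase, fell by 1.15 and 1.09. The remaining genes among the 15 were Myo1f, Rab3il1 and Cplx1 (undetected without Dox, at least 1.56-fold, 1.76-fold and 1.71-fold lower, with the second probe of Rab3il1 at −0.20), Nlrp14 (−1.14), 4921530G04Rik (−1.09), Cpn1 (−1.07, detected on 1 of 3 arrays without Dox), Tcf15 (−1.03), Igsf21 (−1.02) and D14Ertd668e (−1.02), next to Aurkc, Chac1 and Gbx2.
Of 26 genes of glycolysis and hypoxia 3 rose and none fell (median 0.16). Ndrg1, a hypoxia-induced gene, was 8.34, 8.26 and 8.42 with Dox and 9.20, 9.20 and 9.22 without Dox (change 0.87, SE 0.09, adjusted p 2.44e-07), and P4ha1, a prolyl hydroxylase of collagen, rose by 0.73.

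The cell division and repair lists gave few calls, beside 4.99% of all genes tested. None of 35 genes of DNA damage checkpoints and repair (median −0.16) and none of 30 replication genes (median −0.12) was called by limma or by the methods' t-test with Benjamini-Hochberg adjustment, while 15 genes of each list had an unadjusted p under 0.05 by limma, as did 37.6% of all genes tested. Of 31 mitosis and spindle checkpoint genes only Aurkc was called, and of 21 cell cycle genes 1 rose (Ccne2, a cyclin of S-phase entry, 0.69). Ccne2 also rose in Ctrl_R (0.65), and the difference between the clones was 0.04 (limma adjusted p 0.943). Among 32 p53 targets Tap1 and Rprm rose (0.67 and 0.64) and Sesn2 fell by 0.63 (median −0.05), but each of the 3 missed the call without 1 or more of the 6 arrays, when 1 to 2 rose and 0 to 1 fell, and the t-test with Benjamini-Hochberg adjustment called none. Cdkn1a, the p53-induced inhibitor of cyclin-dependent kinases, was 11.20, 11.27 and 11.23 with Dox and 11.25, 11.30 and 11.22 without Dox, and Mdm2, the p53 ubiquitin ligase, had a change of −0.06. None of 24 cholesterol synthesis, 20 polycomb or 19 Bcl2 family genes was called by either test, with medians of 0.25, −0.05 and −0.10 and 14, 7 and 6 genes at an unadjusted p under 0.05 by limma.

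The control clone shows what 5 days without Dox did where no rescue copy of Ppp2r1b was lost. Whether the earlier submission of its arrays bears on the differences below was not tested. In Ctrl_R 167 probes were called (1.1%), 107 higher (0.706%) and 60 lower (0.396%). Of the 731 probes called in Ppp2r1b_R, 51 were called in the same direction in Ctrl_R and none in the opposite one. The change in Ppp2r1b_R differed from that in Ctrl_R for 497 probes (3.28%), 259 higher (1.71%) and 238 lower (1.57%; without background correction 210 higher and 274 lower), and 278 of the 731 were among them. T rose by 0.75 in Ctrl_R, and the excess in Ppp2r1b_R was 1.16 (SE 0.15, adjusted p 3.51e-05). For Evx1 the excess was 1.83, for Cdx2 1.15 and for Fgf8 0.94. Of the 28 streak genes 8 had a higher change than in Ctrl_R and none a lower one, where this and later counts of such differences hold called ones only. Zfp42, Dppa3, Nr5a2 and Zfp57 of the 22 naive genes had a lower change, and the change of Dppa3 in Ctrl_R was 0.20 (not called). For Gbx2, Tcl1 and Esrrb the differences from Ctrl_R (−0.49, −0.58 and −0.52) had limma adjusted p of 0.0101, 2.94e-05 and 0.000494 but stayed below 1.5-fold, so that they were not called, with changes in Ctrl_R of −0.60, −0.39 and −0.31. Chac1 and Trib3 were also lower in Ctrl_R without Dox (−0.81 and −0.69), and neither difference between the clones was called. That of Chac1 (−0.56, limma adjusted p 0.000238) stayed below 1.5-fold, and that of Trib3 was −0.25 (limma adjusted p 0.19). Of the 30 genes of the ATF4 stress response none was called for a lower change than in Ctrl_R and 4 were called for a higher one (Stc2, Atf3, Vldlr and Atf5). Of the 17 ERK feedback genes only Dusp4 had a higher change than in Ctrl_R (difference 0.72), and Fos, Phlda1, Ier3, Jun and Junb, with changes of 0.31 to 0.39 in Ctrl_R, did not pass. Of the 18 Wnt targets 5 had a higher change and none a lower one, of the 18 Nodal and BMP genes 4 and 1, of the 20 trophoblast genes 3 and 2, and of the 21 fibroblast markers 3 and none. For Aurkc the difference from Ctrl_R was −1.37, and 5 of the 20 germline genes differed downward. Ahnak and Cyr61 rose by 1.03 and 0.73 in Ctrl_R, beside 0.79 and 0.69 in Ppp2r1b_R. The differences of Rspo3, Usp18, Agtrl1, AY761185, LOC100048346 and Defcr-rs10 from Ctrl_R (2.03, 1.94, 1.57, 2.27, 2.00 and 1.65) were called here but not without background correction, where they were 2.28, 2.03, 2.62, 3.81, 1.76 and 1.09.

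Bub1b_R had 849 called probes (5.6%, with 2.94% higher and 2.67% lower), Ppm1g_R 662 (4.37%, with 2.3% higher and 2.07% lower), and the arrays labelled Chek1_R 1404 (9.27%, with 4.49% higher and 4.77% lower). Of the 731 probes of Ppp2r1b_R, 418 were called in the same direction in at least 1 of them, 106 in all 3, and 16 in the opposite direction in at least 1. Without the arrays labelled Chek1_R these were 308 in Bub1b_R or Ppm1g_R, 122 in both and 12 in the opposite direction. The change in Ppp2r1b_R differed from the mean change of the 3 for 481 probes (3.17%), 259 higher (1.71%) and 222 lower (1.47%). Mixl1, Lhx1, Mesp1 and Gsc of the streak list were among the 8 genes with the largest lower change. Mixl1, undetected here, rose by 2.56 in Bub1b_R, 2.24 in Ppm1g_R and 2.75 where Chek1_R was the label, and the fitted difference was −2.09. Lhx1, Mesp1 and Gsc differed by −1.57, −1.45 and −1.38, and Isl1, a LIM-homeobox factor of cardiac mesoderm, by −1.46. Against Bub1b_R and Ppm1g_R alone the differences of Mixl1, Lhx1, Mesp1, Gsc and Isl1 were −1.97, −1.34, −1.11, −1.05 and −1.45. Mixl1, Lhx1 and Mesp1 were detected on none and Isl1 on 1 of the 6 arrays here, so their differences are fitted values against a signal near background and not exact sizes.
Part of this difference was called only with the arrays labelled Chek1_R included. Against the mean of all 3 clones 14 of the 28 streak genes had a lower change, and against the mean of Bub1b_R and Ppm1g_R alone (527 probes called, 3.48%) 7 had, where 1.91% of all probes were higher and 1.56% lower. Eomes, Lhx1, Mesp1, Mixl1 and Wnt3a belong to both counts, were detected on none of the 6 arrays of Ppp2r1b_R and were tested only through clones where their signal is high, so the counts are a description. That leaves 9 detected genes with a lower change than the 3 clones and 2, Gsc and Snai1, with a lower change than the pair. T, Cdx2, Evx1 and Sp5 differed by −0.70, −0.76, −1.15 and −0.95 from the 3 clones, but by 0.22, 0.07, −0.44 and −0.31 from the pair, and were no longer called. Fgf8 then had a higher change than in the pair. Without background correction the differences of Mixl1 (−1.31), Lhx1 (−1.25) and Mesp1 (0.20) were not called, while all 3 genes are below detection in Ppp2r1b_R.

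**Figure D5:**
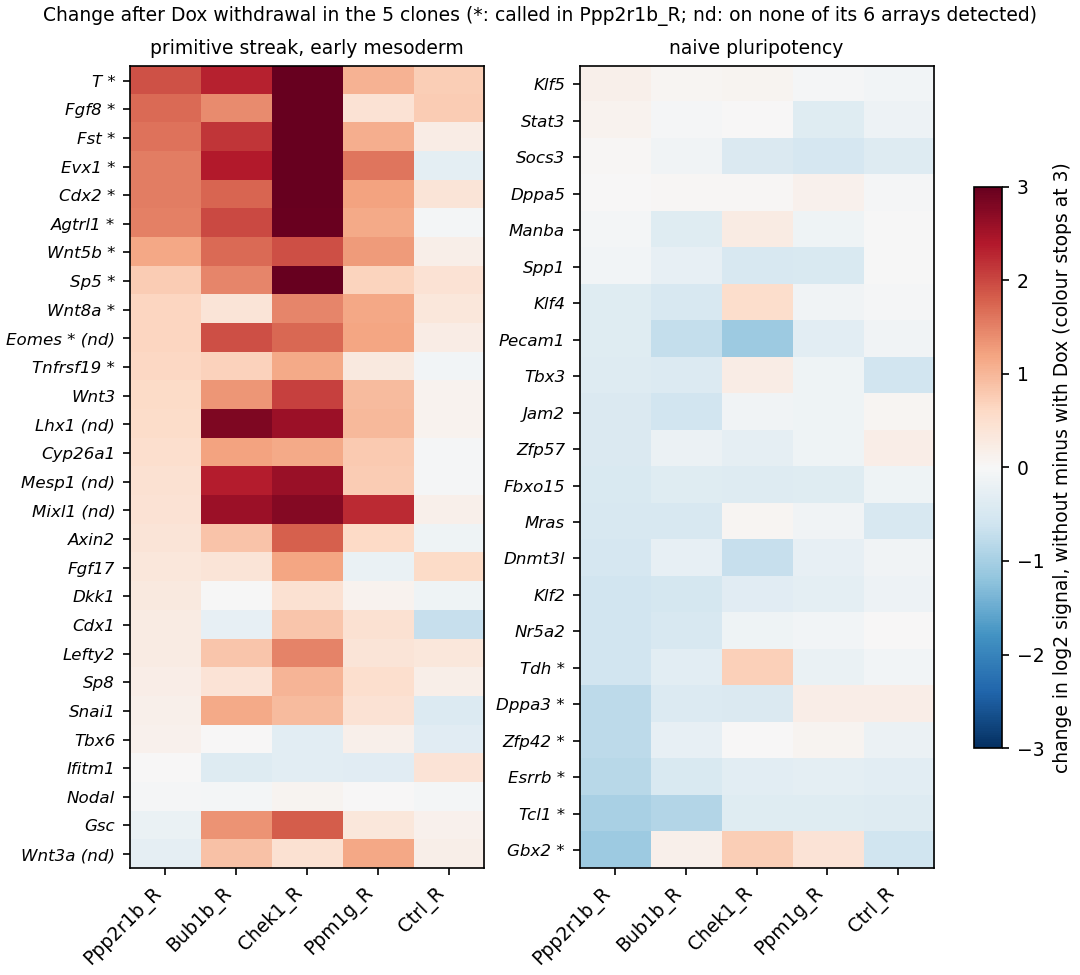
Change in log2 signal after Dox withdrawal (colour, red higher and blue lower, ending at 3) for the tested streak genes (left) and naive genes (right) in the 5 clones, where Chek1_R stands for the arrays so labelled. A star marks genes called in Ppp2r1b_R and nd those detected on none of its 6 arrays, such as Mixl1, which rose by 2.24 to 2.75 in the other 3 rescue clones.

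Of the 22 naive genes 3 had a lower change than in the 3 clones. Gbx2 fell by 1.08 in Ppp2r1b_R and had changes of 0.15 in Bub1b_R, 0.40 in Ppm1g_R and 0.73 on the arrays labelled Chek1_R, a difference of −1.51 (SE 0.09, adjusted p 2.54e-10) that was −1.36 against Bub1b_R and Ppm1g_R. In Ctrl_R Gbx2 fell by 0.60. Zfp42 differed by −0.74 from the 3 clones and by −0.71 from the pair. Sox21 differed by −1.24 and Chac1 by −1.15, and against the pair by −1.18 and −1.50. The clones behind these means moved in different directions. Chac1 changed by 0.21 in Bub1b_R and 0.04 in Ppm1g_R, but by −0.93 where Chek1_R was the label, which was a called fall. Its change in Ctrl_R was −0.81. Sox21 changed by −0.34 in Bub1b_R, 0.69 in Ppm1g_R and 0.35 where Chek1_R was the label, beside −0.29 in Ctrl_R. Higher changes than in the 3 clones were found for Csnk1g1, a casein kinase (difference 1.18), Gpr146, an orphan receptor (1.16), Cd68, a glycoprotein of lysosomes (1.11), and Abhd2, a hydrolase (1.04). Gpr146 was undetected with Dox in Ppp2r1b_R, so its differences are fitted values and not exact sizes. Without the arrays labelled Chek1_R these 4 differences were 1.34, 1.34, 1.15 and 1.19. The 3 clones were not alike in them. Csnk1g1 had changes of −0.21 in Bub1b_R, −1.06 in Ppm1g_R and −0.15 on the arrays labelled Chek1_R, Gpr146 of 0.28, −0.73 and 0.29, and Abhd2 of 0.28, −0.58 and 0.29, so that each mean was lowered by Ppm1g_R. Cd68 was 8.73, 8.88 and 8.54 with Dox and 9.30, 9.35 and 9.36 without Dox in this clone, and its changes in the other 3 rescue clones lay between −0.71 and −0.35. In Ctrl_R it was 0.22, and the difference of Cd68 from Ctrl_R (0.40, limma adjusted p 0.0551) was not called. Its rise of 0.62 here was not called without replicate 3 with Dox (0.53). Ndrg1 and P4ha1 had higher changes than the 3 clones by 0.72 and 0.65, Gadd45b, a stress-induced gene, by 0.72 and Fos by 0.71, and by 0.91, 0.59, 0.73 and 0.77 without the arrays labelled Chek1_R. Ndrg1 had changes of 0.52 in Bub1b_R, −0.60 in Ppm1g_R and 0.54 on the arrays labelled Chek1_R, so that its mean too was lowered by Ppm1g_R. Fos was the only one of the 17 ERK feedback genes with a higher change than the 3 clones, while Dusp6, Etv1 and Etv4 had a lower one, joined by Spry4 against the pair. The differences of Csnk1g1, Fos, P4ha1 and Gadd45b from Ctrl_R were not called. Each of these comparisons between clones uses the same 6 arrays of Ppp2r1b_R.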

How the data were processed

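RNA of the 30 arrays was hybridised to Illumina Mouse WG8-V2 BeadChips by a service laboratory (Asuragen). The authors deposited 1 table of non-normalized values, with a signal intensity averaged over beads and a detection p-value for each probe and array, per the file headers. The study's processing used lumi, whose version, like the normalisation, is not given in the sources used here. The detection cells were checked, and 46 on array 2 of Ppm1g_R without Dox and 14 on array 2 of Bub1b_R without Dox had been turned into dates. Of these, 28 and 6 were converted back and 18 and 8 took the value of the nearest signal. No array of Ppp2r1b_R was touched, and no probe column was left out (0 unused).
Starting from these intensities, the neqc function of limma 3.58.1 (R 4.3.3, statmod 1.5.0) corrected the background, added an offset of 16, normalised the 30 arrays by quantiles and took log2. Tested were the 15151 of 25697 probes that 3 or more arrays detected (detection p under 0.05). One linear model held 10 condition means (20 residual and 3.38 prior degrees of freedom), and p-values were adjusted by Benjamini-Hochberg over all tested probes. A probe was called when its adjusted p lay under 0.05 and its change reached 1.5-fold. The brightest probe stands for a gene. Named are Ppp2r1b and PP2A genes, the study's qRT-PCR panel, up to 4 called genes with the largest change of each list, the 15 largest rises and falls, and the 8 largest differences each way from Ctrl_R and from the other 3 clones. Genes outside this rule were named after their values had been seen. The clone, the lists and the tests were chosen with earlier results of these data known. Changes of named genes undetected in 1 whole condition of Ppp2r1b_R are given as a bound, and differences between clones as fitted values. The pipeline was tested on simulated data. Alternatives covered background, offset, scaling, filter, fold limit, replicate block, the methods' t-test, fits of fewer arrays and each array left out. Sequences were copied from the study's supplementary lists. The table names 18097 gene symbols, and those given as RefSeq's come from its mouse gene list.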

Additional observations from a re-analysis of the deposited data

Results flagged for a closer look

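The change in Ppp2r1b_R differed from that in Ctrl_R for 497 probes and from the mean change of the other 3 rescue clones for 481 (limma, a test of the difference itself). The values below are fitted differences in log2 change. For genes undetected in a whole condition they rest on a signal near background and are not exact sizes. The control or comparison arrays are shared by all genes of a group.
Changes higher than in Ctrl_R were fitted for AY761185 (2.27), Rspo3 (2.03), Usp18 (1.94) and Evx1 (1.83), and, among genes undetected with Dox in Ppp2r1b_R, for Cxx1c (2.34), LOC100048346 (2.00), Defcr-rs10 (1.65) and Agtrl1 (1.57). Lower changes were fitted for Aurkc (−1.37), D14Ertd668e (−1.23) and Ppp1r12c (−1.22), and, among genes undetected without Dox, for LOC639910 (−1.26), Usp43 (−1.19), Myo1f (−1.15), Lancl3 (−1.13) and 4922505G16Rik (−1.13). LOC639910 was detected on no array of Ppp2r1b_R, and its difference rests on a rise of 1.33 in Ctrl_R. 4922505G16Rik was not called within Ppp2r1b_R (limma adjusted p 0.186), beside a called rise of 0.74 in Ctrl_R. Ppp1r12c changed by −0.98 on the probe shown and by −0.11 on its second probe in Ppp2r1b_R, and the mean of its probes (−0.54) was not called.
Against the other 3 rescue clones, higher changes were fitted for Csnk1g1 (1.18), Gpr146 (1.16, undetected with Dox), Cd68 (1.11), Galnt3 (1.11), Fnbp1 (1.09), Si (1.05), Abhd2 (1.04) and Aqp3 (0.99). Fnbp1, Si and Aqp3 were not called within Ppp2r1b_R, with changes of 0.54, 0.24 and 0.27, and the 3 probes of Fnbp1 had changes of −0.72 to 0.54. Lower changes were fitted for Gbx2 (−1.51), Gsc (−1.38) and Klhl6 (−1.32), for Mixl1 (−2.09), Lhx1 (−1.57), Mesp1 (−1.45) and Bmper (−1.28), detected on no array of Ppp2r1b_R, and for Isl1 (−1.46), detected on 1. Klhl6 rose by 0.92 in Ppp2r1b_R, and without the arrays labelled Chek1_R its difference was −0.55 and no longer called, while the other 15 genes kept their direction, among them Mixl1 at −1.97 and Bmper at −1.20.
Without background correction, the differences of LOC639910 (−1.24, adjusted p 0.0981), Galnt3 (1.27, adjusted p 0.551) and Gpr146 (1.39, adjusted p 0.174) were not called by limma, next to those named in the comparisons above. When only the compared arrays were fitted, those of Ppp1r12c, Lancl3, Myo1f and 4922505G16Rik were not called, at −1.14, −1.02, −1.04 and −1.02, and that of 4922505G16Rik was not called without replicate 1 of Ctrl_R without Dox (−0.99, adjusted p 0.0539) or with the replicate block (−1.13, adjusted p 0.0522) either.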

How the results depend on the processing

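The 731 probes called in Ppp2r1b_R became 985 without background correction (50.6% higher instead of 57.5%), 560 with arrays scaled to one median, 723 without a detection filter and 650 with a stricter one. They became 342 with an offset of 50, 92 at 2-fold, 3839 with no fold limit and 456 in a fit of the clone's 6 arrays alone. The methods' t-test gave 3696 at an unadjusted p under 0.05, 545 after Benjamini-Hochberg and 206 of these at 1.5-fold. Leaving out each array in turn gave 728 to 846. The 497 differences from Ctrl_R became 484 without background correction (210 higher and 274 lower, instead of 259 and 238), 288 with median scaling (139 and 149), 274 with an offset of 50, 75 at 2-fold, 1254 with no fold limit and 217 when only the compared arrays were fitted, and 438 to 531 with an array left out. The 481 differences from the other 3 clones became 183 with an offset of 50 (89 higher and 94 lower, instead of 259 and 222) and 32 at 2-fold (11 and 21). They became 2116 with no fold limit (1065 and 1051), and 461 to 547 with an array left out. The difference of Mesp1 from these clones turned to 0.20 (adjusted p 0.688) without background correction. The causes were not tested.
With the replicate number as a block, 716, 417 and 464 probes were called. Deviations of same-numbered arrays correlated at −0.05, 0.01 and 0.13, not all above 0.1, so the numbers were not taken to pair the arrays, although replicate 3 had the highest median signal before normalisation in both conditions (43.9 with Dox and 34.3 without).
Of 91 named genes called in Ppp2r1b_R, 62 were called under each of the 12 to 14 alternatives run gene by gene (background, scaling, offset, filters, block, fewer arrays and, with several probes, their mean), 29 lost the call under at least 1, none reversed, and Cd68, Egln1, Eras, Gadd45b, Hnf4a, Lancl3, Rprm, Sesn2, Tap1, Tgfb2 and Usp43 lost it without 1 of the 6 arrays.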

Other observations

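The groups from interferon-stimulated to glutathione genes were assembled after the values had been seen, so their counts are descriptions with no test of the group. Beside all counts below, 2.8% of all genes tested rose and 2.19% fell.
Interferon-stimulated genes, which restrict viruses and present antigen, rose in part. Of 35 tested, 19 rose and none fell (median 0.59, against −0.01 over all genes), and with each array left out 15 to 19 rose. Next to Usp18, D12Ertd647e (1.69), which RefSeq lists as Ifi27, Samd9l (1.55), Parp14 (1.25), Oasl2 (0.97), Gbp3 (0.94), Gbp2 (0.83), Igtp (0.77), Ifi35 (0.74) and Cxcl10 (0.72) rose. Oasl2, Gbp3, Gbp2 and Cxcl10 rose in Ctrl_R as well (0.59, 0.93, 0.76 and 0.68), and their differences from Ctrl_R were not called. The median change of the same 35 genes was 0.10 in Ctrl_R, 0.49 in Bub1b_R, 0.05 in Ppm1g_R and 1.55 on the arrays labelled Chek1_R, where 4, 14, 4 and 26 of them were called. The change in Ppp2r1b_R was higher than in Ctrl_R for 9 of them, among them Usp18, Samd9l, Parp14, Igtp and Gbp6 (own change 0.76, difference 0.94). Of 16 MHC genes, which carry antigen to the cell surface, 4 rose and none fell (median 0.29): H2-M2 (1.37), H2-T23 (0.95), H2-Q7 (0.83) and H2-Bl (0.80), whose close relatives may share probes. With each array left out 4 to 6 of the MHC genes rose, and their median was 0.14 to 0.36.
Of 20 Hox genes, the homeobox factors of the body axis, 6 rose and none fell, although the median was −0.04. Hoxd8 was 6.00, 6.12 and 6.32 with Dox and 7.47, 7.45 and 7.57 without Dox (change 1.35), and Hoxc9, Hoxd9, Hoxc6 and Hoxa7 rose by 1.30, 1.08, 0.99 and 0.80. Of 10 tested Wnt ligands 6 rose and none fell (median 0.76). Wnt5a was 6.34, 6.46 and 6.05 with Dox and 7.78, 7.47 and 7.59 without Dox (change 1.33, limma adjusted p 1.27e-08), with Wnt6, Wnt4 and Wnt7a at 1.11, 0.89 and 0.87. The median of these ligands was 0.14 in Ctrl_R and 0.80 to 1.17 in the other 3 rescue clones. Among 18 keratins 4 rose and 2 fell, Krt17 by 0.64 and Krt42 by 0.82. Of 23 genes of glutathione use and the NRF2 response 5 fell and none rose (median −0.28), with Gpx2 at −0.81 and Gsta4 at −0.66 next to Gstp2, Aldh3a1 and Cbr3.
Among imprinted genes, expressed from 1 parental copy, 3 of 20 rose and none fell (median 0.11): Peg3 (0.86, not called in a fit of the 6 arrays alone), Dlk1 (0.85) and Mest (0.70). The mean of the Mest probes (0.58) was not called. The methods' t-test with Benjamini-Hochberg adjustment called none of the imprinted genes, and their median was 0.09 to 0.2 with each array left out. Of 14 DNA methylation genes 1 rose (Gadd45b, 0.65) and none fell (median −0.05), a count near the 4.99% called over all genes tested. Of 24 genes of adhesion and of the transition from epithelium to mesenchyme 3 rose and none fell (median 0.18), with Zeb2 at 0.92 (not called without background correction) and Vim, the intermediate filament of mesenchyme, at 0.76. Among the 22 tested genes of the study's own qRT-PCR panel 3 rose (T, Cdx2 and Eomes, the last called but detected on none of the 6 arrays) and 3 fell (Tcl1, Esrrb and Zfp42), and the panel was chosen by the study, so that its counts are no independent evidence. None of 5 tested genes of the state like the embryo at its first cleavage was called by limma or the methods' t-test (median 0.16, and 0.84 in Ctrl_R). Of these, 1 had an unadjusted p under 0.05 by limma, as did 37.6% of all genes tested. With each array left out the median of these 5 was 0.01 to 0.27, and 0 to 1 rose.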
